A study of Saccharomyces cerevisiae with 6 samples.

Results

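The 7 yeast genes of trehalose synthesis and breakdown were followed at the mRNA level in cells depleted of Hsp90. They were matched by gene name, with no threshold on a measured value, although the set was proposed with earlier results of these data known. TPS1, TPS2, TPS3 and TSL1 make up the synthesis group of 4 genes, and NTH1, NTH2 and ATH1 the breakdown group of 3. All 7 were found among the 6377 rows of the array table by their systematic names, each with 1 probe and with a value on all 6 arrays, so that none was lost to a filter. They are also 7 of the 6290 genes that had values in both cultures and could be tested.

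Each array compared dox-treated with untreated log-phase cells of Saccharomyces cerevisiae. The dox-treated cells were grown with doxycycline (dox) at 5 μg/ml for 11 h, and the untreated cells were grown without it. Both carried the same genotype in the R1158 background of the sample labels (S288C in the study's methods), TETp-HSC82 hsp82Δ arg4Δ lys5Δ car2Δ::URA3, so the deletions were shared by the treated cells and their controls. Yeast has a pair of Hsp90 genes, HSC82 and HSP82. With HSP82 deleted, the only Hsp90 left came from HSC82 under a promoter that dox shuts off, and the treated cells are called low-Hsp90 cells below. There were 2 cultures with 3 technical arrays each. In culture 1 the cells labelled with light arginine and lysine were treated, in culture 2 the cells labelled with heavy arginine and lysine, so culture and isotope label cannot be told apart. The treated sample carried the same dye on all 6 arrays, and a dye effect on a single probe cannot be told apart from the treatment. Arrays of dox in a strain without the TET promoter were not analysed here, so dox itself and the loss of Hsp90 cannot be told apart either.

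Trehalose is a glucose disaccharide that yeast stores as a carbohydrate reserve and uses as a protectant of proteins and membranes under heat, desiccation and other stress. It is made by the trehalose synthase complex. Tps1 joins glucose-6-phosphate with UDP-glucose to trehalose-6-phosphate, Tps2 removes the phosphate, and Tps3 and Tsl1 are regulatory subunits of the complex. It is broken down to glucose by the neutral trehalase Nth1, by its homolog Nth2 and by the acid trehalase Ath1, which is needed for growth on trehalose taken from the medium. Several of these genes, TPS1, TPS2 and TSL1 among them, are known targets of the stress transcription factors Msn2 and Msn4.

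Values are on the log2 scale, dox-treated divided by untreated, so a value above 0 means a higher mRNA level in low-Hsp90 cells. A gene was called misregulated if the mean of the 2 cultures lay beyond 1.5-fold (0.58 on the log2 scale) with an unadjusted p below 0.05 in limma. Adjusted p-values are Benjamini-Hochberg values of the same limma fit over all 6290 genes. Every SE given here, and every interval, also comes from limma, with a variance moderated across genes. Such an SE is not that of the 2 culture means alone. It can be wider than their own spread where they lie close together, and narrower where they lie apart. HSC82 was checked first. Its log2 ratio was −6.43, −6.36 and −5.96 on the arrays of culture 1, and −5.48, −6.00 and −5.70 on those of culture 2. The mean was −5.99 ± 0.16 (SE, n = 2 cultures; limma adjusted p = 0.00066), so HSC82 mRNA was much lower in dox on every array. Arrays of culture 1 correlated with each other at 0.885 to 0.966 across genes, arrays of culture 2 at 0.668 to 0.857, and arrays of different cultures at 0.525 to 0.661. The arrays held 6180 to 6353 values each, with medians between −0.03 and 0.02. They read whole populations at equal RNA input, so fewer cells with an mRNA and less of it per cell cannot be told apart.

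Of the 7 trehalose genes, 1 met the criterion. ATH1 was upregulated, with a mean 1.57 times the untreated level, and it was the only one of the 7 above 0 on all 6 arrays. None of the 7 was downregulated under the criterion, and 0 passed 1.5-fold with an adjusted p below 0.05. Over all genes tested, 10.5% met the criterion (659 of 6290), 5.74% upward and 4.74% downward, and 5.36% passed with the adjusted p. Without the fold threshold, 3 of the 7 had an unadjusted p below 0.05 (TPS2, TSL1 and ATH1), against 29.1% of all genes. In the 6153 genes with 6 values, 23.6% were above 0 on all 6 arrays and 23.4% below 0 on all 6, and 0 of the 7 trehalose genes were below 0 on all 6. A share of 1 in 7, for the criterion or for all 6 arrays above 0, is near these backgrounds.

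**Figure D1:**
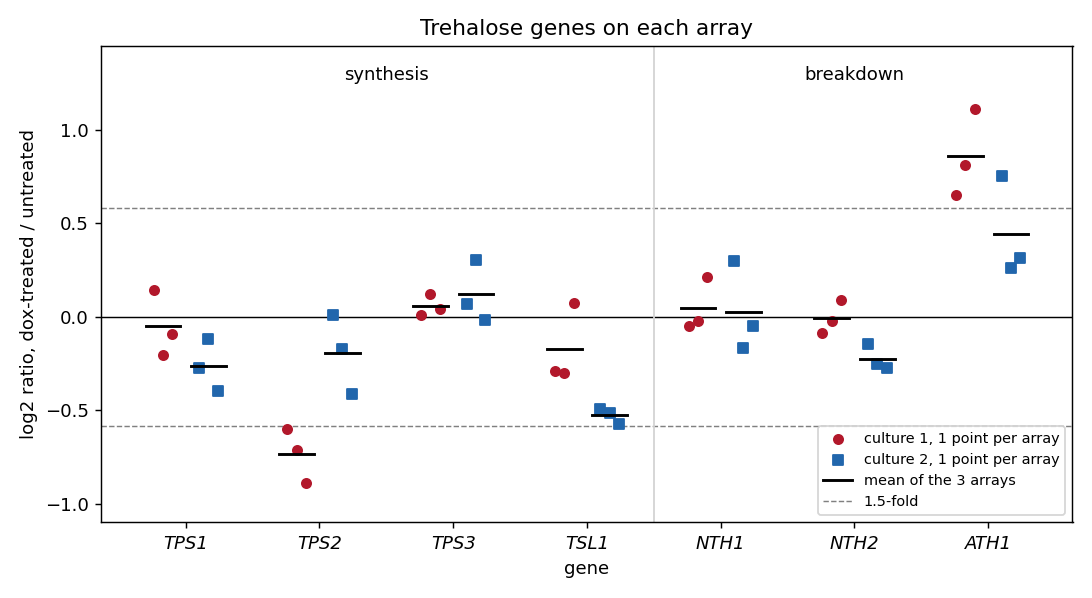
Log2 ratio of dox-treated over untreated cells (vertical axis) for the 4 synthesis and the 3 breakdown genes (horizontal axis), with 1 point per array, red for culture 1 and blue for culture 2, a bar at the mean of the 3 arrays of a culture and dashed lines at 1.5-fold. All 6 points of ATH1 lie above 0, and TPS2 lies below the lower dashed line in culture 1 only. The points of TPS1, TPS3, TSL1, NTH1 and NTH2 stay between the dashed lines.

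TPS1 (YBR126C) encodes the synthase subunit, which carries out the first step of the pathway. Its log2 ratios were 0.14, −0.20 and −0.09 in culture 1, and −0.28, −0.12 and −0.40 in culture 2. The gene was lower in dox on 5 of 6 arrays, by little, and the ranges of the cultures overlapped. The mean was −0.16 ± 0.12 (SE, n = 2 cultures; 95% interval −0.47 to 0.16; limma adjusted p = 0.447), with an interval that holds 0 and lies within 1.5-fold in either direction.

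TPS2 (YDR074W) encodes the phosphatase subunit, which completes the synthesis. On the arrays of culture 1 it was −0.60, −0.71 and −0.89. On those of culture 2 it was 0.01, −0.17 and −0.41. All 3 values of culture 1 were beyond 1.5-fold and below every value of culture 2, where the arrays spread around a small decrease. The culture means were −0.73 ± 0.15 in culture 1 and −0.19 ± 0.21 in culture 2 (SD, n = 3 technical arrays each), or 0.601 and 0.876 times the untreated level. Across cultures the mean was −0.46 ± 0.16 (SE, n = 2 cultures; 95% interval −0.88 to −0.05). This is the lowest mean of the 7 genes, with 8.41% of all genes at or below it. It was short of 1.5-fold and did not pass the adjusted p (limma, 0.144).

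TPS3 (YMR261C) encodes one of the regulatory subunits. Its log2 ratios were 0.01, 0.12 and 0.04 in culture 1, against 0.07, 0.31 and −0.02 in culture 2. It was the only synthesis gene with a mean above 0, and its arrays overlapped between the cultures and reached 0. The mean was 0.09 ± 0.12 (SE, n = 2 cultures; 95% interval −0.20 to 0.38; limma adjusted p = 0.646), within 1.5-fold in either direction.

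TSL1 (YML100W) encodes the other regulatory subunit, which is a paralog of Tps3. In culture 1 the arrays gave −0.29, −0.30 and 0.07, and in culture 2 they gave −0.49, −0.51 and −0.57. Every array of culture 2 was lower than every array of culture 1, and the 3 arrays of culture 2 lay close together (mean −0.53 ± 0.04, SD) while those of culture 1 spread across 0 (mean −0.17 ± 0.21, SD). The mean of the cultures was −0.35 ± 0.14 (SE, n = 2; limma adjusted p = 0.171). Its 95% interval, −0.70 to −0.0009, only just left out 0, and the mean was short of 1.5-fold. On the same arrays TSL1 lay below TPS3 by 0.23 in culture 1 and by 0.65 in culture 2, and it was lower than TPS3 on all but 1 array.

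NTH1 (YDR001C) encodes the main neutral trehalase of the cytosol, whose activity is raised by phosphorylation through protein kinase A. It was −0.05, −0.02 and 0.22 in culture 1, and 0.30, −0.16 and −0.05 in culture 2. The sign differed among the arrays of both cultures, with 2 arrays above 0 and 4 below. The culture means, 0.05 in culture 1 and 0.03 in culture 2, lay closer together than the moderated SE would imply. The mean was 0.04 ± 0.12 (moderated SE, n = 2 cultures; 95% interval −0.25 to 0.33; limma adjusted p = 0.856), the nearest to 0 of the 7. Leaving out array 3 of culture 1 or array 1 of culture 2 turned its sign.

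NTH2 (YBR001C) encodes a close homolog of Nth1. Its arrays gave −0.09, −0.02 and 0.09 in culture 1, and −0.15, −0.25 and −0.28 in culture 2. All 3 values of culture 2 were lower than those of culture 1, but none of the 6 was far from 0. The mean was −0.12 ± 0.12 (SE, n = 2 cultures; 95% interval −0.43 to 0.20; limma adjusted p = 0.572). NTH2 was lower than NTH1 on all 6 arrays, by 0.06 in culture 1 and by 0.25 in culture 2, although the smallest of the 6 differences was only 0.002.

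ATH1 (YPR026W) encodes the acid trehalase. Its log2 ratios were 0.65, 0.81 and 1.11 in culture 1, and 0.75, 0.26 and 0.32 in culture 2. All 6 were above 0, those of culture 1 were all beyond 1.5-fold, and 1 of the 3 in culture 2 was. The culture means were 0.86 ± 0.23 in culture 1 and 0.44 ± 0.27 in culture 2 (SD, n = 3 technical arrays each), or 1.81 and 1.36 times the untreated level. The mean of the cultures was 0.65 ± 0.15 (SE, n = 2; 95% interval 0.28 to 1.02), which ranks 311 from the top of 6290 genes. The limma adjusted p was 0.0654, so the call rests on the unadjusted p of the criterion. Without array 1 of culture 2 the mean was 0.57, just under 1.5-fold, and the call was lost.

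ATH1 had a higher ratio than 5 of the other 6 genes on every array, and a higher one than TPS3 on 5 of 6 arrays. It was higher than NTH1 on all 6 arrays, by 0.81 in culture 1 and 0.42 in culture 2. Over NTH2 the differences were 0.87 and 0.67, and over TPS1 they were 0.91 and 0.71, in culture 1 and culture 2. TPS2 lay 1.59 below ATH1 in culture 1 and 0.64 below in culture 2, and TSL1 lay 1.03 and 0.97 below it. Over TPS3 the differences were 0.80 in culture 1 and 0.33 in culture 2, and on array 2 of culture 2 ATH1 was the lower of the pair, by 0.04. The acid trehalase and both neutral trehalases therefore had unequal ratios, and so did the synthase and phosphatase subunits in culture 1, where TPS2 lay below TPS1 by 0.68. In culture 2 the difference of TPS2 minus TPS1 was 0.07. These differences were picked after the values were seen and are given as a description, without a test.

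Read as a group, the 4 synthesis genes had a median of −0.11 in culture 1 against −0.23 in culture 2, while that of the 3 breakdown genes was 0.05 and 0.03. The 7 together centered on −0.01 in culture 1 and −0.19 in culture 2, with medians of all genes tested at −0.02 and 0.02. Each of the 7 had the same sign in both cultures, as did 74.0% of all genes. The technical SD ran between 0.057 and 0.23 in culture 1 and between 0.042 and 0.27 in culture 2, and 5 of the 7 exceeded the median SD of all genes in each culture (0.109 and 0.118). The 95% intervals rest on the variance that limma moderates across genes. Those of 4 genes, TPS1, TPS3, NTH1 and NTH2, held 0 and lay within 1.5-fold in either direction. Those of TPS2, TSL1 and ATH1 reached past 1.5-fold.

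The cultures were then set against each other with limma, as culture 1 minus culture 2 over 3 technical arrays each. This compares these cultures only, because growth, isotope label and culture cannot be told apart. A gene was called different with an adjusted p below 0.05 and a difference beyond 1.5-fold, which held for 7.49% of all genes tested and for 0 of the 7 trehalose genes. The ratio was higher in culture 1 for 5 of the 7 and lower for 2, TPS2 and TPS3. TPS2 came closest to the call. Its difference was −0.54 ± 0.13 (SE; 95% interval −0.83 to −0.25) with a limma adjusted p of 0.0184, which passed, but it was short of 1.5-fold (−0.58). With array 1 of culture 1 left out it was −0.61 and with array 3 of culture 2 left out −0.65, and either setting made it a call. Other settings made it smaller. It was −0.41 with scale and −0.39 with quantile normalization (limma adjusted p = 0.0487 and 0.0689). Without array 1 of culture 2 it was −0.44, and without array 3 of culture 1 it was −0.46. ATH1 differed by 0.41 (95% interval 0.05 to 0.78; limma adjusted p = 0.0947) and TSL1 by 0.35 (0.09 to 0.61; limma adjusted p = 0.0593). The difference of ATH1 was 0.26 with scale and 0.21 with quantile normalization (limma adjusted p = 0.172 and 0.370). Without array 1 of culture 2 it was 0.57 (limma adjusted p = 0.0293). That of TSL1 was 0.23 without array 3 of culture 1. With each array centered on its median it was 0.39 (limma adjusted p = 0.0392). It was 0.43 with scale and 0.46 with quantile normalization (limma adjusted p = 0.0332 and 0.0292). All of these were short of 1.5-fold. For NTH2 the difference was 0.22 (0.01 to 0.42; limma adjusted p = 0.113). The intervals of TPS1, TPS3 and NTH1 held 0, and over all 7 genes the bounds ran from −0.83 to 0.78, so differences of 1.5-fold between the cultures were not excluded for TPS2, TSL1 and ATH1.

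**Figure D2:**
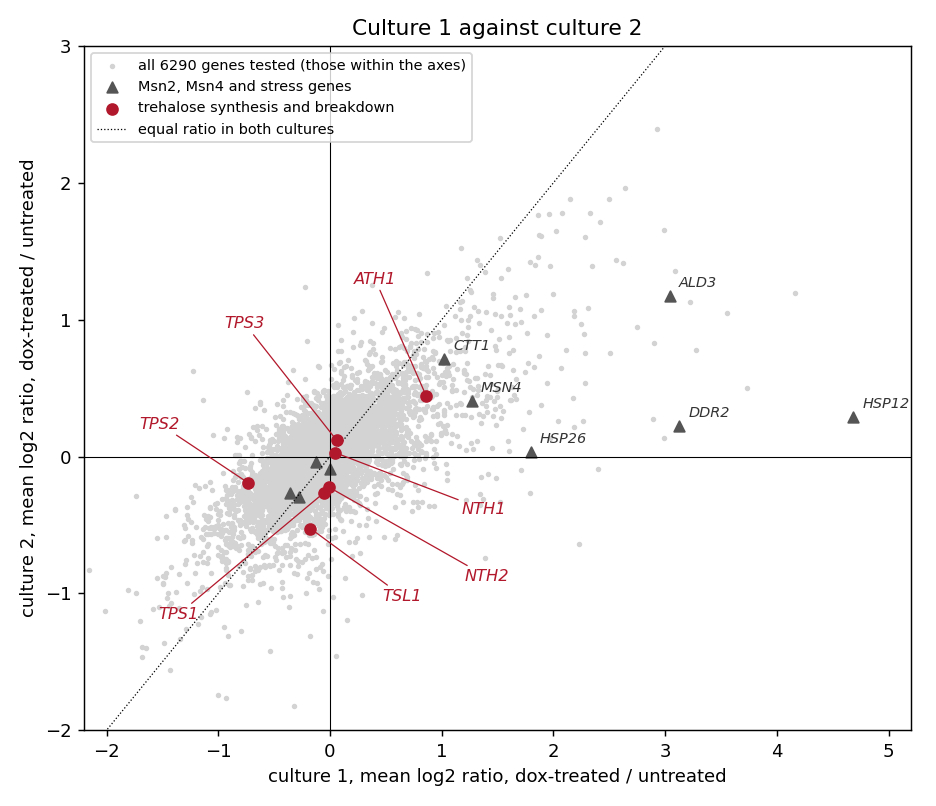
Mean log2 ratio of dox-treated over untreated cells in culture 1 (horizontal axis) and culture 2 (vertical axis), with 1 point per gene, grey for all 6290 genes tested that fall within the axes, red circles for the 7 trehalose genes and dark triangles for Msn2, Msn4 and stress genes. The trehalose genes lie within the grey cloud, with ATH1 at 0.86 and 0.44 and TPS2 at −0.73 and −0.19, while HSP12, DDR2, ALD3 and HSP26 lie far to the right of the dotted line of equal ratios.

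Trehalose is built from glucose-6-phosphate and UDP-glucose, and 6 genes that supply them were read from the same fit. This list and those below were chosen with earlier results of these data known. Their shares beside all genes are therefore a description and not a test. Among these 6, 3 were downregulated under the criterion and 0 upregulated, against 4.74% downward and 5.74% upward over all genes. HXK2, the main hexokinase during growth on glucose, lay between −0.82 and −1.0 in culture 1 and was −0.70, −0.36 and −0.55 in culture 2, with a mean of −0.73 (limma adjusted p = 0.0531). The glucokinase gene GLK1 was −0.61, −0.58 and −0.56 in culture 1 and −0.70, −0.62 and −0.85 in culture 2. GLK1 was thus lower by a similar amount on every array, with a mean of −0.65 ± 0.12 (SE, n = 2; limma adjusted p = 0.047), and it was the 1 gene of the 6 that also passed with the adjusted p. PGM1, the minor phosphoglucomutase, had culture means of −0.75 and −0.43 and a mean of −0.59 (limma adjusted p = 0.067).

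The other 3 supply genes did not meet the criterion, and for 2 of them the cultures differed. HXK1, the hexokinase paralog that is repressed by glucose, was 1.57, 1.31 and 1.57 in culture 1, against −0.02, −0.12 and −0.34 in culture 2. The difference of 1.64 was called (limma adjusted p = 6.4e-05), and the mean of 0.66 did not meet the criterion (limma adjusted p = 0.297). UGP1, which makes UDP-glucose, had its lower values in culture 2. It was −0.33, −0.32 and 0.07 in culture 1, and −1.06, −0.55 and −0.93 in culture 2, a difference of 0.66 (limma adjusted p = 0.0203) around a mean of −0.52. PGM2, the major phosphoglucomutase, had culture means of 0.07 and −0.43, a difference of 0.51 that was short of 1.5-fold. The median of the 6 was −0.39 in culture 1 and −0.49 in culture 2.

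Nth1 is activated by protein kinase A together with 14-3-3 proteins. Of 5 genes read for these, TPK2 and TPK3 for catalytic subunits, BCY1 for the inhibitory subunit and BMH1 and BMH2 for the 14-3-3 proteins, 0 met the criterion, and 2 had an unadjusted p below 0.05 without reaching 1.5-fold, where 10.5% of all genes met the criterion and 29.1% had such a p. These were BCY1, with culture means of 0.41 and 0.37 (mean 0.39; limma adjusted p = 0.101), and BMH2, with 0.32 and 0.40 (mean 0.36; limma adjusted p = 0.125). Both were above 0 on all 6 arrays, as were 23.6% of all genes. The 5 means lay between −0.27 and 0.39, within 1.5-fold of the untreated level. MAL11, whose product carries trehalose into the cell, had means of 0.15 in culture 1 and −0.28 in culture 2 (mean −0.07; limma adjusted p = 0.799).

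Msn2, Msn4 and stress genes known as their targets were listed because TPS1, TPS2 and TSL1 share these regulators. The list was chosen with earlier results of these data known, so its shares are a description and not a test. Of the 10 genes, 5 were upregulated under the criterion, 0 were downregulated, and 1 passed with the adjusted p, against 5.74% upward, 4.74% downward and 5.36% with the adjusted p over all genes. The gene with the adjusted call was CTT1, the cytosolic catalase, at 1.04, 0.80 and 1.22 in culture 1 and 0.97, 0.73 and 0.43 in culture 2 (mean 0.87; limma adjusted p = 0.0361). MSN4 itself was 1.20, 1.16 and 1.44 in culture 1, against 0.59, 0.30 and 0.34 in culture 2 (mean 0.84; limma adjusted p = 0.0838), and MSN2 had a mean of −0.05. The hydrophilin gene HSP12 had culture means of 4.68 and 0.29, and the stress gene DDR2 had 3.13 and 0.22. The aldehyde dehydrogenase gene ALD3 had 3.04 and 1.17. These 3 met the criterion on their means, with limma adjusted p-values of 0.166 for HSP12, 0.163 for DDR2 and 0.0545 for ALD3, and in culture 2 alone HSP12 and DDR2 were near the untreated level. The calls of HSP12 and DDR2 rest on the moderated variance. Their SEs from limma were 0.96 and 0.64, while their culture means differed by 4.39 and 2.90. HSP26, a small heat shock gene, had 1.80 and 0.03 and did not meet the criterion (limma adjusted p = 0.202).

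In this list 5 of 10 genes differed between the cultures, MSN4, HSP12, DDR2, HSP26 and ALD3, each with the higher ratio in culture 1, where 7.49% of all genes were called in either direction. The remaining stress genes were below 0 in both cultures and did not meet the criterion. HSP104, the disaggregase, was at −0.28 and −0.30, GRE3, the aldose reductase, at −0.13 and −0.04, and PNC1, the nicotinamidase, at −0.36 and −0.26. These 3 were below 0 on all 6 arrays, as were 23.4% of all genes with 6 values. PNC1 had an unadjusted limma p of 0.042. The median of the 10 was 1.15 in culture 1 and 0.13 in culture 2. Of the trehalose genes that share Msn2 and Msn4, TPS1 and TSL1 also had the higher ratio in culture 1, but by 0.21 and 0.35, and TPS2 had the lower one. None of the 3 reached 1.5-fold above the untreated level on any array.

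**Figure D3:**
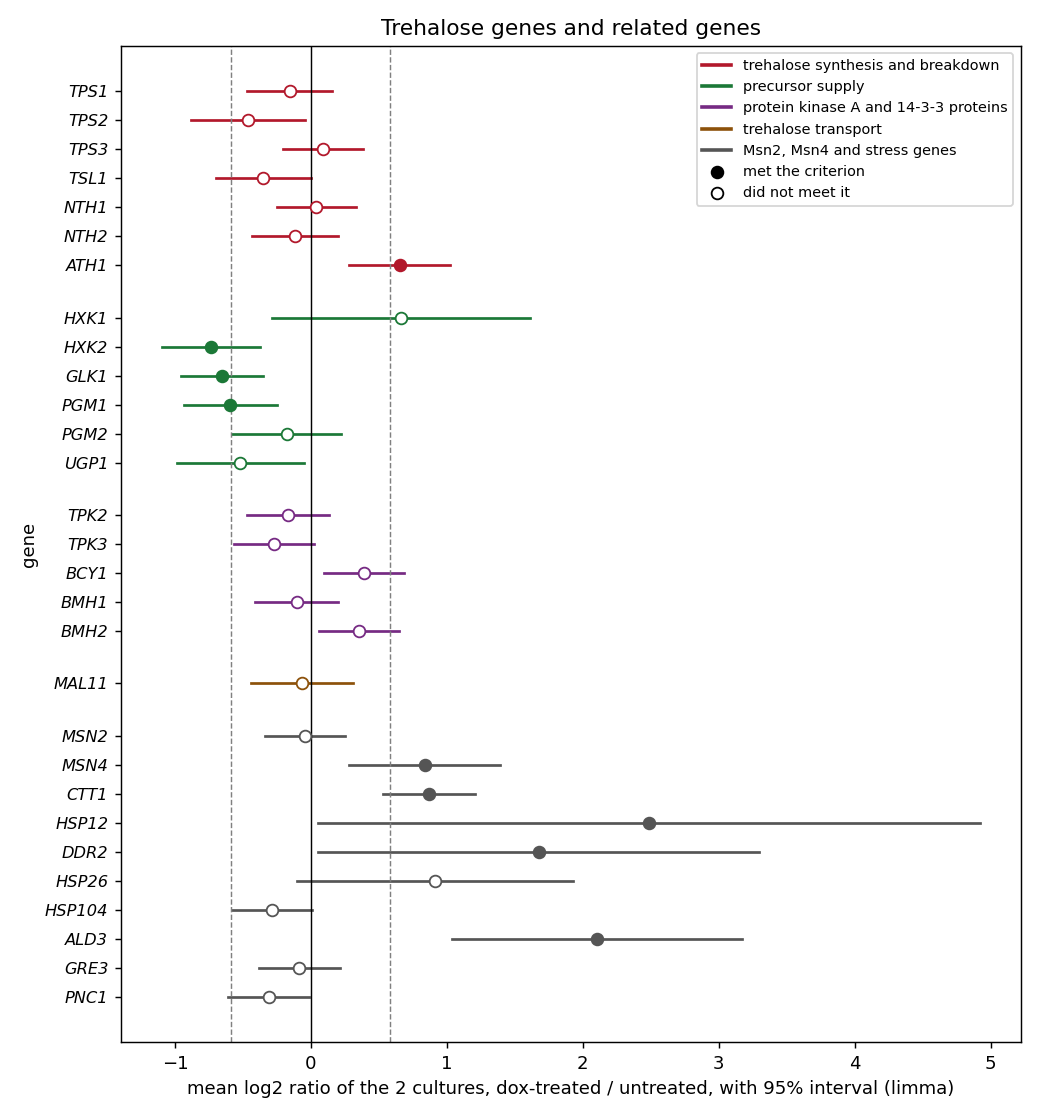
Mean log2 ratio of the 2 cultures, dox-treated over untreated (horizontal axis), with its 95% interval from limma, for the 7 trehalose genes and the related lists (vertical axis), filled where the gene met the criterion and open where it did not, with dashed lines at 1.5-fold. ATH1 is the only filled trehalose gene at 0.65, HXK2, GLK1 and PGM1 are filled on the left, and 5 stress genes are filled on the right, HSP12 and DDR2 with intervals that nearly reach 0.

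**Figure D4:**
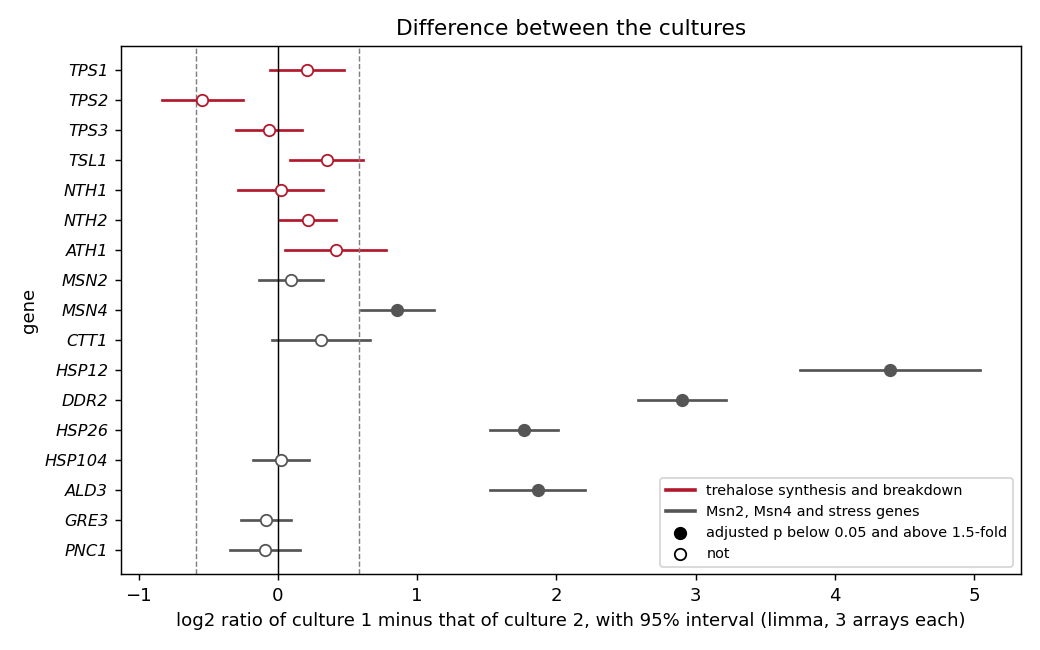
Log2 ratio of culture 1 minus that of culture 2 (horizontal axis) with its 95% interval from limma over 3 technical arrays each, for the 7 trehalose genes and the 10 Msn2, Msn4 and stress genes (vertical axis), filled where the adjusted p was below 0.05 and the difference beyond 1.5-fold, with dashed lines at 1.5-fold. The 7 trehalose genes are all open, TPS2 at −0.54 being the farthest from 0, while MSN4, HSP12, DDR2, HSP26 and ALD3 are filled between 0.86 and 4.39.

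The genes whose 6 ratios lay nearest to those of ATH1 were sought among 6152 other genes with 6 values, by the root mean square difference over the arrays. The nearest was THI13 (YDL244W), a thiamine biosynthesis gene, at a distance of 0.093, with culture means of 0.83 and 0.47. THI13 belongs to a family of nearly identical copies that a probe may not tell apart, so its value is uncertain. NNR1 (YNL200C), which encodes a repair enzyme for damaged NADH and NADPH, followed at 0.097, with 0.90 and 0.43. GPM2 (YDL021W), a homolog of phosphoglycerate mutase, came next at 0.101, with 0.83 and 0.42. The 3 distances are smaller than the SD of ATH1 among the arrays of either culture.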

How the data were processed

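The authors reverse transcribed, labelled and hybridized RNA of dox-treated and untreated cells to homemade oligonucleotide arrays and corrected the intensities with LOWESS (GeneSpring GX). The values that they deposited, 1 for every ORF on each array, were read here as log2 ratios, dox-treated divided by untreated. The log2 scale was inferred from the lowest deposited value, −6.64 (the log2 of a hundredth), which occurs 10 times and at none of the trehalose genes. The direction was taken from the sample titles, and HSC82 goes with it. Background correction and spot filters are not given in the sources used here, and signal intensities were not analysed here, so precision rests on the number of arrays.

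Gene names came from the R64 RefSeq table, which matched 5840 of the 6377 rows. The other 537 kept their names, and 0 sample columns were unused. Neither promoter nor protein sequences were analysed here, and no coordinates are given because no build is named with the values.

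Because the arrays of a culture are labelled technical replicates, their ratios were first averaged, and the 2 culture means were compared with 0 by limma 3.58.1 in R 4.3.3 (intercept only, two-sided), over all genes with a value in both cultures. The variance is moderated across genes because each gene has only 1 residual degree of freedom. The SEs and intervals of the means use this moderated variance. The criterion of 1.5-fold and p below 0.05 is that of the study's methods, which name no test. Cultures were compared by limma over 3 technical arrays each, and such p-values measure technical spread. The fits were tested on simulated data.

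The members and the related lists were chosen with earlier results of these data known. Named were HSC82, all members, each gene of the related lists that met the criterion or differed between cultures and otherwise at most 2 of a list with the largest means, and the 3 genes nearest to a called member. Further genes of these lists were named after their values were seen, and 1 gene of a list is not reported here. Alternatives covered the threshold, the unit of replication, normalization, missing values and arrays or cultures left out.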

Additional observations from a re-analysis of the deposited data

Results flagged for a closer look

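None of the 7 trehalose genes stood out, either by a difference between the cultures that passed both thresholds or by 1 array far from the rest. In 19 sets of 6 arrays examined for an array far from the others, none was found. Each set held the arrays of both cultures, so an array apart only within its own culture could be missed. Among the related genes, 7 had log2 ratios that differed between the cultures with an adjusted p below 0.05 in limma and by more than 1.5-fold. Given as culture 1 minus culture 2, the differences were 1.64 for HXK1 and 0.66 for UGP1 among the genes of precursor supply. In the stress list they were 0.86 for MSN4, 4.39 for HSP12, 2.90 for DDR2, 1.77 for HSP26 and 1.87 for ALD3. In all 7 the ratio was higher in culture 1, and the cultures also differed in the isotope label of the treated cells, whose part in these differences cannot be told apart from that of the culture.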

How the results depend on the processing

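The count of trehalose genes meeting the criterion was 1, and it was 0 with the adjusted p, 0 at 2-fold and 3 (TPS2, TSL1 and ATH1) with p below 0.05 and no fold threshold. It ran from 0 to 2 when an array or a culture was left out, with 0 without array 1 of culture 2 (ATH1 0.57) or by the fold of culture 2 alone, and 2 (TPS2 and ATH1) by the fold of culture 1 alone. The count past the adjusted threshold was 0, and it was 1 (ATH1) with the 6 arrays as replicates, with culture as a random block (correlation within cultures 0.414), with scale normalization and with quantile normalization. Between the cultures the count was 0, and it was 1 (TPS2) with the adjusted p and no fold threshold, and ran from 0 to 1 with an array left out (TPS2, without array 1 of culture 1 or array 3 of culture 2). Over all alternatives the mean of ATH1 ran from 0.44 to 0.86 (limma adjusted p from 0.0018 to 0.127). With an array left out the sign turned for the mean of NTH1 (−0.030 to 0.086), its difference between the cultures (−0.075 to 0.157) and that of TPS3 (−0.129 to 0.032), all near 0. The cause of these changes was not tested. In the whole table the number of genes with an adjusted call ranged from 2 with each array centered on its median to 524 with quantile normalization, with 59 to 383 when an array was left out, against 337, while the criterion gave 617 to 704. No paired analysis was possible because each array already holds the ratio of a pair of samples and there is 1 group. The planned promoter windows were not run. With 2 cultures, the 95% intervals of TPS2, TSL1 and ATH1 held changes on both sides of 1.5-fold.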
